A study of Mus musculus and Homo sapiens with 9 samples.

Results

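This account describes the baseline transcriptome of control J.gamma1 cells, taken from the 2 RNA-seq libraries labelled sh-NC out of 9 samples in the series. They were chosen by their labels alone, from a count table that also holds the 2 knockdown libraries of the same line, which are not described here. J.gamma1 is a human T cell acute lymphoblastic leukemia (T-ALL) line derived from Jurkat and known for its deficiency in the phospholipase PLCγ1. Both libraries came from cells that carried the non-targeting hairpin sh-NC in the pLKO.1 vector, delivered by lentivirus and kept under puromycin according to the methods of the study, while the labels speak of transfection. The cells therefore also share the vector, the selection and the genetic history of a single line, and nothing in the labels says whether the 2 libraries were separate cultures. Many genes are given with both values, others with only the ratio of the 2 libraries or a mean per kilobase. The gap between the 2 libraries is the only measure of error.

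T-ALL arises from T cell progenitors held at a stage of thymic development. Early progenitors carry KIT and CD34, cortical thymocytes carry CD1 proteins and rearrange their receptor genes with RAG1, RAG2 and the terminal transferase DNTT, and mature T cells carry the receptor complex with CD3 and lose the recombinase. In one class of T-ALL the bHLH factor TAL1, which is silent in normal thymocytes past the progenitor stage, is kept on and works with GATA3, RUNX1 and MYB.

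The libraries held 26112472 and 30463304 counts in 56105 annotated genes, and levels are given as counts per 1000000 of these totals (CPM). A gene at 1 CPM or more in both libraries is called detected. Where genes are compared with each other, the level is CPM per kilobase of the canonical transcript. A count of 0 allows up to 0.115 CPM in replicate 1 and 0.0985 CPM in replicate 2, taking 3 counts as the limit and covering counting error only. Of 19550 protein-coding genes, 11517 were detected (58.9%), 4773 had no count in either library (24.4%) and 3260 lay between. Medians were 39.8 CPM and 11.5 CPM per kilobase among the detected genes, and 2.36 CPM per kilobase among all protein-coding genes.

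The 5 genes taken as markers of this line were all detected. CD3E, a signalling chain of the T cell receptor, stood at 406 and 484 CPM in replicates 1 and 2. TAL1 stood at 234 and 221 CPM. CD1A, the lipid-presenting protein of cortical thymocytes, was at 54.3 and 53.5 CPM. These 3 genes differed little between the libraries. RAG1 stood at 60.4 and 30.7 CPM, 1.96 times higher in replicate 1, and DNTT at 25.3 and 44.7 CPM, 1.77 times higher in replicate 2. Per length, CD3E was the highest of them at 327 CPM per kilobase (rank 148 among the protein-coding genes), followed by TAL1 at 49.0 (rank 1486), CD1A at 29.8 (rank 2601), DNTT at 18.1 (rank 4157) and RAG1 at 6.91 (rank 7421). The ranges of the 2 libraries did not overlap between any neighbours in this order.

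The T cell receptor complex was transcribed with both conventional chains. The 4 CD3 chains, which carry the signal of the receptor into the cell, were all detected, with CD3D at 218 and 235 CPM, CD3G at 143 and 145 CPM and CD247 at 76.5 and 89.7 CPM beside CD3E. Per length, CD3E and CD3D lay close together at 327 and 323 CPM per kilobase, and CD3G and CD247 lay lower at 53.5 and 51.9 CPM per kilobase. That closeness depends on the transcript chosen, since with the union of all exons as length CD3E was at 167 and CD3D at 66.5 CPM per kilobase. The alpha constant region TRAC was at 74.8 and 90.4 CPM. The beta constant regions TRBC1 and TRBC2 were at 137 and 216 CPM and at 42.1 and 53.1 CPM; their sequences are close copies, so reads may be divided between them. The delta constant region TRDC had no count, the gamma region TRGC2 was at 4.90 and 6.14 CPM, and PTCRA, the pre-receptor chain that pairs with beta before alpha is made, was at 1.23 and 2.73 CPM. TRBC1 was 1.58 times and PTCRA 2.22 times higher in replicate 2.

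Each T cell joins 1 variable segment per productive chain, and few segments were counted here. Among 54 alpha variable segments (TRAV), 3 were detected and 42 had no count. TRAV8-4, on chromosome 14 at chr14:21894433-21895030, held 80.5% and 80.8% of the counts of these segments, at 36.5 and 40.8 CPM, and the next was TRAV18 at 4.21 and 5.29 CPM. The joining segment TRAJ3 was the only one detected of 60, at 1.72 and 2.27 CPM. Among 65 beta variable segments (TRBV), 3 were detected and 51 had no count. TRBV28 was highest per length at 426 CPM per kilobase, with 150 and 160 CPM. TRBV12-3 followed at 209 CPM per kilobase, with 77.01 and 94.1 CPM and its near copy TRBV12-4 at 53.7 and 66.0 CPM, a pair in which shared reads cannot be told apart. Gamma segments stayed low, with TRGV5 at 1.57 and 2.13 CPM and TRGV3 at 1.61 and 1.58 CPM, and none of the 3 delta variable segments (TRDV) had a count. Counts per segment do not show which segments are joined to a constant region.

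Markers of the cortical stage were detected in 14 of 14 cases, against 58.9% of all protein-coding genes, while 6 of 11 progenitor markers and 13 of 15 mature markers were. These lists were written for T cells and hold genes of different breadth, so the shares describe the lists only. CD1E was the highest of the CD1 genes at 71.8 CPM per kilobase, with 120 and 156 CPM, while CD1B was at 40.8 and 52.5 CPM, CD1D at 26.9 and 27.8 CPM and CD1C at 8.08 and 8.57 CPM. CD99, a surface protein abundant on immature thymocytes, was at 128 and 159 CPM, and CD38 at 47.8 and 48.2 CPM. The coreceptors were low, though no cortical thymocytes were measured here for comparison. CD4 was at 3.14 and 9.82 CPM, 3.13 times higher in replicate 2, CD8A at 2.53 and 2.07 CPM and CD8B at 1.49 and 1.71 CPM. With a limit of 1 CPM per kilobase in both libraries 12 of the 14 would be detected, without CD8A at 1.20 and 0.982 and CD8B at 0.312 and 0.356 CPM per kilobase.

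Of the progenitor markers, CD7, an early T lineage protein that T-ALL cells usually keep, led at 42.2 CPM per kilobase, with 50.5 and 57.9 CPM. KIT, the stem cell factor receptor, was at 7.51 and 9.95 CPM, and IL7R, the receptor chain for interleukin 7, at 8.77 and 8.11 CPM. CD34, the marker of hematopoietic progenitors, lay on the limit at 1.15 and 0.821 CPM and so was not detected in both libraries. FLT3 was at 1.11 and 1.25 CPM. The adhesion receptor CD44, which falls as thymocytes commit, was at 0.0766 and 0.0657 CPM, which is 2 counts in each library, and the myeloid antigen CD33 was at 0 and 0.230 CPM. Among mature markers, CD6 was at 43.4 and 49.0 CPM, CD5 at 36.0 and 45.9 CPM and CD28 at 25.9 and 25.9 CPM. CD2 was at 3.68 and 5.91 CPM, 1.61 times higher in replicate 2, CD27 stayed below the limit at 0.766 and 0.919 CPM, and IL2RA, the inducible chain of the interleukin 2 receptor, was at 0.0766 and 0.0657 CPM. The plot of stage markers shows the cortical column wholly to the right of the detection limit.

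All 13 listed recombination genes were detected as mRNA, beside 58.9% of all protein-coding genes. Of these, 10 are end-joining genes and 3 are RAG1, RAG2 and DNTT. RAG2, the partner of RAG1, was at 18.1 and 15.9 CPM, and per length the pair lay close together, at 6.91 CPM per kilobase for RAG1 and 7.13 for RAG2. The 10 end-joining genes, whose proteins close the breaks, spanned a wide range per length, from 1.38 CPM per kilobase for NHEJ1, 3.12 for DCLRE1C and 4.51 for POLL to 236 for XRCC5 and 411 for XRCC6. XRCC6 and XRCC5, which form the Ku clamp on DNA ends, were at 833 and 911 CPM and at 789 and 804 CPM. PRKDC, the catalytic kinase of the same complex, was at 865 and 535 CPM, 1.62 times higher in replicate 1. LIG4 was at 57.6 and 53.4 CPM, and the nuclease DCLRE1C at 20.8 and 16.5 CPM. RAG1 and PRKDC have long transcripts, of 6.59 and 13.5 kb, and long transcripts were lower in replicate 2 in general. The log2 ratio of replicate 2 over replicate 1 was -0.97 for RAG1 and -0.695 for PRKDC, beside medians of -0.16 and -0.29 for transcripts of like length.

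Among the oncogenic factors that define classes of T-ALL, TAL1 stood apart from its relatives, at 49.0 CPM per kilobase. The related bHLH genes were low or absent, with LYL1 at 8.96 and 11.8 CPM, TAL2 at 0.153 and 0.0328 CPM and OLIG2 at 0. LMO1, a LIM-only protein that bridges TAL1 to other factors, was at 8.004 and 11.7 CPM, whereas LMO2 had 2 and 0 counts and LMO3 none. The homeobox genes of the other classes were low, with 4 of 10 detected, beside 58.9% of all protein-coding genes. TLX3 had no count, TLX1 was at 0.383 and 0 CPM, NKX2-1 at 0.651 and 1.61 CPM and HOXA9 at 0.230 and 0 CPM, while HOXA13 was at 8.92 and 10.4 CPM. Per length the highest of the 10 were NKX2-5 at 1.97 and HOXA13 at 1.93 CPM per kilobase. MEF2C and SPI1, which mark immature T-ALL, were at 0.115 and 0 CPM and at 0.153 and 0 CPM. MYC was at 278 and 218 CPM and MYCN at 14.7 and 14.7 CPM.

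Of 27 listed genes of the TAL1 circuit, which include TAL1 itself and 5 genes around IRF2BP2, 25 were detected, or 92.6% against 58.9% of all protein-coding genes. The list median was 23.8 CPM per kilobase, beside 2.36 for all protein-coding genes. The list was chosen with earlier results of these data known, so its share and median describe the list only. MYB, a factor of immature blood cells, was at 647 and 595 CPM. RUNX1 was at 624 and 522 CPM, ETS1 at 601 and 506 CPM and GATA3, which drives T cell identity, at 93.8 and 106 CPM. The E proteins that pair with TAL1 were also high, with TCF3 at 323 and 309 CPM and TCF12 at 328 and 294 CPM, while TCF4 was at 20.03 and 14.7 CPM. Per length the order of these genes was MYB at 168, ETS1 at 108, RUNX1 at 96.0, TCF3 at 66.7, TCF12 at 50.9, TAL1 at 49.0 and GATA3 at 32.4 CPM per kilobase. In this order ETS1 and RUNX1 overlapped between the libraries, and so did TCF12 and TAL1. The ETS factor ERG was low at 3.37 and 3.15 CPM, or 0.665 CPM per kilobase, GATA1, the erythroid partner of TAL1, had no count, and GATA2 was at 7.09 and 8.08 CPM. CBFA2T2, a corepressor of the complex, was 1.91 times higher in replicate 1, at 43.2 and 22.6 CPM. IRF2BP2, the gene that the study targeted in its other J.gamma1 libraries, was at 203 and 202 CPM.

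Of 19 factors that commit cells to the T lineage, 18 were detected, beside 58.9% of all protein-coding genes. Their median was 25.9 CPM per kilobase, beside 2.36. This list too was chosen with earlier results known, so these values describe it only. The WNT pathway factors LEF1 and TCF7 stood at 701 and 737 CPM and at 527 and 511 CPM, and the chromatin organizer SATB1 at 572 and 453 CPM. IKZF1, or Ikaros, was at 406 and 344 CPM, its relative IKZF2 at 352 and 235 CPM, TOX at 207 and 209 CPM, and BCL11B, which closes the alternative fates, at 200 and 215 CPM. The NOTCH target HES1 was low at 1.88 and 3.32 CPM, 1.77 times higher in replicate 2, while its relative HES4 was at 20.5 and 31.2 CPM, 1.52 times higher in replicate 2, and DTX1 at 52.4 and 48.2 CPM. Of the factors that separate CD4 from CD8 cells, ZBTB7B was at 1.11 and 1.61 CPM and RUNX3 at 10.1 and 15.5 CPM, 1.54 times higher in replicate 2. THEMIS, a protein needed for selection in the thymus, was at 11.6 and 28.8 CPM, 2.48 times higher in replicate 2, and ZBTB16 was at 14.0 and 8.73 CPM, 1.60 times higher in replicate 1. Factors of effector and regulatory subsets were uneven. TBX21 was at 0.996 and 0.886 CPM and FOXP3 at 0.498 and 1.05 CPM, while BCL6 was at 6.36 and 9.19 CPM, EOMES at 11.7 and 11.5 CPM and RORA at 53.1 and 42.6 CPM.

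**Figure D1:**
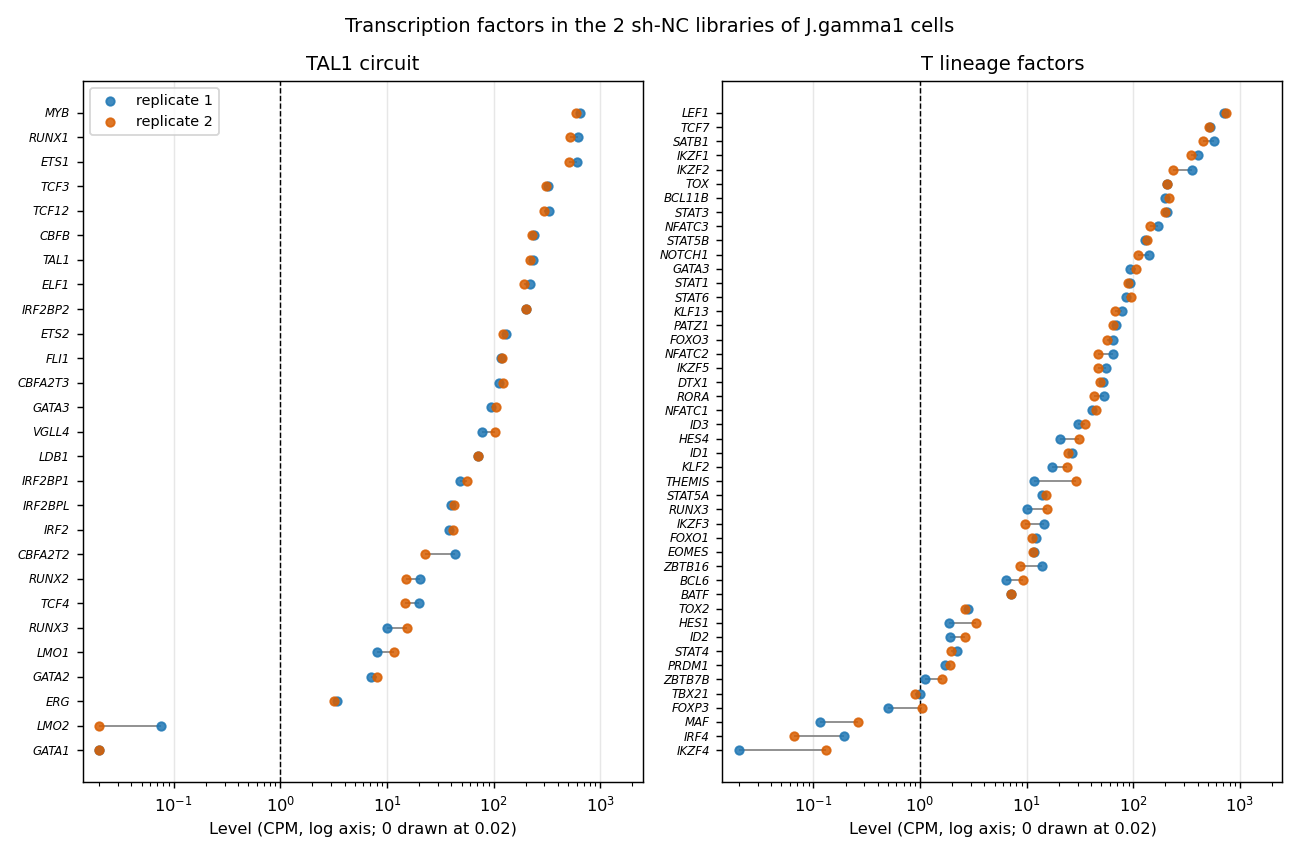
Level of listed transcription factors in CPM on a log axis (horizontal), with 1 row per gene sorted by CPM, in replicate 1 (blue) and replicate 2 (orange) of the sh-NC cells, for the TAL1 circuit (left) and T lineage factors (right); values of 0 are drawn at 0.02 and the dashed line marks 1 CPM. MYB, RUNX1 and ETS1 head the left panel and LEF1, TCF7 and SATB1 the right, while LMO2 and GATA1 sit at the floor.

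Factor families, taken by symbol, differed in the share detected, from 18.8% of 16 T-box genes and 22.2% of 9 PAX genes through 46.2% of 39 HOX genes to 90.9% of 11 E2F and DP genes and 100% of 7 STAT genes, beside 58.9% of all protein-coding genes. Of the PAX genes, PAX6 was at 23.6 and 23.3 CPM and PAX9 at 19.1 and 18.1 CPM, and the B cell factor PAX5 was at 0.153 and 0 CPM. SOX4 led 19 SOX genes at 606 and 609 CPM, and RORB led 46 nuclear receptors at 18.1 CPM per kilobase, with 205 and 141 CPM, though its lower library overlapped with ESRRA at 14.4 CPM per kilobase. GATA3 and GATA2 were the detected pair among 6 GATA genes. Among the HOX genes, which pattern the body axis, 18 of 39 were detected, 7 of 11 in the HOXA cluster, 4 of 10 in HOXB, 5 of 9 in HOXC and 2 of 9 in HOXD. Per length HOXC10, HOXD13, HOXA7 and HOXB7 lay close together, between 10.9 and 11.7 CPM per kilobase, and HOXD13 stood at 26.04 and 27.7 CPM. All 7 STAT genes, all 5 NFAT genes and all 5 NF-kB genes were detected, led by STAT3 at 208 and 200 CPM, NFATC3 at 170 and 145 CPM and RELA at 95.2 and 105 CPM. In the families that play wider roles the leading members per length were TFDP1 of the E2F and DP factors at 99.9 CPM per kilobase, FOXM1 of the FOX factors at 61.4, IRF3 of the IRF factors at 27.8, BATF3 of the AP-1 factors at 26.6, SMAD5 of the SMAD factors at 13.4, SIX6, a homeobox factor, at 10.9, KLF13 of the KLF factors at 10.5, POU3F2 of the POU factors at 7.43 and ISL2 of the LIM homeobox factors at 3.37. SMAD5 overlapped between the libraries with SMAD4, KLF13 with KLF16 and POU3F2 with POU2F1, so these 3 leaders do not stand apart. SIX6 and POU3F2, known from the eye and brain, were at 28.0 and 28.4 CPM and at 34.5 and 38.1 CPM.

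Of 35 listed genes of proximal signalling below the receptor, 34 were detected, beside 58.9% of all protein-coding genes. The list median was 19.6 CPM per kilobase, beside 2.36. This list was also chosen with earlier results of these data known, so its share and median describe the list only. The kinase LCK, which phosphorylates the CD3 chains, was highest at 295 CPM per kilobase, with 569 and 664 CPM. ZAP70, which binds the phosphorylated chains, was at 179 and 211 CPM, and its relative SYK, more typical of B cells and early thymocytes, at 147 and 178 CPM. The adaptor LAT was at 30.1 and 29.8 CPM and LCP2 at 109 and 98.2 CPM. PLCG1, the gene whose product is deficient in this line, was at 263 and 261 CPM, or 36.9 CPM per kilobase, and PLCG2 at 57.7 and 61.1 CPM. These are mRNA levels, and protein was not measured. INPP5D, a lipid phosphatase, was at 20.5 and 24.1 CPM. TXK was the undetected kinase, at 0.843 and 1.25 CPM, and the adaptor PAG1, with a transcript of 10.7 kb, was 1.78 times higher in replicate 1.

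Of 110 listed receptors, 53 were detected, or 48.2% against 58.9% of all protein-coding genes. A few stood high. The chemokine receptor CXCR4, which holds cells in the marrow and thymus, was at 298 and 358 CPM, and IL2RG, the shared chain of the interleukin 2 receptor family, at 237 and 321 CPM. The interferon receptor chain IFNAR1 was at 138 and 137 CPM and NOTCH1 at 139 and 110 CPM. These 4 were the only listed receptors above 100 CPM in both libraries, and per length CXCR4 at 197 and IL2RG at 188 CPM per kilobase overlapped, with IFNAR1 at 22.7 and NOTCH1 at 13.1 CPM per kilobase well below. The partner chains of IL2RG were low, with IL2RB at 1.84 and 1.64 CPM, IL4R at 17.96 and 18.9 CPM and IL9R at 5.52 and 7.39 CPM.

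Among other receptors, S1PR3, a sphingosine phosphate receptor, was at 75.3 and 64.9 CPM, or 16.2 CPM per kilobase, above S1PR1 at 5.43 CPM per kilobase. FAS, the death receptor, was at 30.6 and 33.2 CPM and TNFRSF8, or CD30, at 45.5 and 30.4 CPM, and TNFRSF25 was 1.65 times higher in replicate 2. Checkpoint receptors were largely silent. CTLA4, TIGIT and CD160 had no count, PDCD1 was at 0.115 and 0.197 CPM and LAG3 at 0.230 and 0.295 CPM, whereas CD96 was at 66.0 and 76.4 CPM and VSIR at 5.97 and 14.4 CPM, 2.40 times higher in replicate 2. TNFRSF9, TNFRSF17, TNFRSF18 and LTBR also had no count, nor did CXCR1, XCR1, CCR3, CCR6, IL1RL1, IL18RAP, IL20RA, IL23R and CSF2RA. Of the frizzled and LRP receptors for WNT proteins, FZD6 was at 54.2 and 48.3 CPM, FZD10 had no count, FZD2 was 1.79 times higher in replicate 2, and FZD5 and LRP6 were 1.61 and 1.80 times higher in replicate 1.

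Secreted products of activated T cells were mostly at 0. Of 34 cytokine genes, 20 had no count, beside 24.4% of all protein-coding genes, and 7 were detected, beside 58.9%. IL2, IL3, IL4, IL5, IL13, IL6, IL9, IL17A, IL17F, IL21, IL22, IFNG and CSF2 had no count in either library, LTB had none, TNF had 1 count in each, and none of 9 chemokines was detected. IL32, an unusual cytokine of lymphocytes, was the only listed cytokine gene above 100 CPM in both libraries. It stood at 162 and 269 CPM, 1.66 times higher in replicate 2. TGFB1 was at 60.0 and 72.5 CPM, CD40LG at 17.5 and 19.3 CPM and IL26 at 7.39 and 7.71 CPM.

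Antigen presentation divided by class. For class I, 12 of 13 listed genes were detected, beside 58.9% of all protein-coding genes. B2M, the shared light chain, was at 261 and 332 CPM, and HLA-G had no count. For class II, none of 10 was detected; HLA-DRA and HLA-DQA1 had no count, and the class II activator CIITA was at 0.728 and 1.05 CPM. The peptide transporters TAP1 and TAP2 differed in opposite directions, TAP1 1.89 times higher in replicate 2 and TAP2 1.83 times higher in replicate 1. HLA genes vary in sequence and resemble each other, so their counts are uncertain.

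Markers of other lineages were largely off, with 17 of 76 detected, or 22.4% against 58.9% of all protein-coding genes. None of 13 erythroid and platelet markers was detected; 9 of them, HBB and GATA1 included, had no count, HBA1 was at 0.115 and 0.328 CPM, and no member exceeded 1.51 CPM in either library. MPO, LYZ and CSF1R had no count among the myeloid markers, EPCAM and CDH1 among the epithelial ones, and COL1A2, DCN and CDH5 among the stromal and endothelial ones; KRT8 and KRT18 were at 2.34 and 2.23 CPM and at 1.88 and 1.71 CPM, COL1A1 at 3.26 and 2.73 CPM and CD14 at 0 and 0.131 CPM. The exceptions stood in otherwise silent lists. IGLL1, a surrogate light chain that pre-B cells use, was at 475 and 663 CPM, or 644 CPM per kilobase, which is rank 81 among the protein-coding genes and above CD3E. CD79A, a signal chain of the B cell receptor, was at 45.2 and 61.6 CPM. Of the 11 B lineage markers 4 were detected, these and CD79B at 4.25 and 4.50 CPM and EBF1 at 3.41 and 3.32 CPM, while MS4A1 was at 0 and PAX5 at 0.153 and 0 CPM.

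PECAM1, an adhesion protein of endothelium and blood cells, was at 109 and 138 CPM with CDH5 at 0 and VWF at 0.192 and 0.131 CPM. CEBPE and CEBPA, factors of myeloid cells, were at 13.9 and 25.5 CPM, 1.84 times higher in replicate 2, and at 10.7 and 10.2 CPM. GZMA and PRF1 of the cytotoxic granule were at 26.6 and 29.5 CPM and at 11.6 and 14.4 CPM, while GNLY, KLRF1 and KLRB1 had no count and GZMB was at 0.153 and 0.197 CPM, NKG7 at 1.92 and 1.44 CPM, NCAM1 at 2.22 and 2.82 CPM and KLRD1 at 0.0766 and 0.328 CPM. Of 91 cancer-testis antigens, which are normally confined to the germ line, 12 were detected, beside 58.9% of all protein-coding genes. MAGEA4 led at 63.8 CPM per kilobase, with 108 and 112 CPM, while MAGEA9B was at 37.8 and 46.5 CPM and MAGEA9 at 26.4 and 30.9 CPM, which are near copies that may share reads. KRT10 and KRT1, keratins of differentiating skin, were at 12.9 and 14.9 CPM and at 11.4 and 16.4 CPM. Of 55 keratins, 41 had no count, beside 24.4% of all protein-coding genes.

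Of 26 cell cycle genes, 25 were detected, beside 58.9% of all protein-coding genes. Above 100 CPM in both libraries lay 20 of them, beside 11.2% of all protein-coding genes. This list was likewise chosen with earlier results of these data known, so these shares describe the list only. The cyclins CCND1, CCND2 and CCNE1 were the lowest. CDK6, the kinase that drives entry into the cycle, was at 1738 and 1154 CPM, 1.51 times higher in replicate 1. Of the D cyclins, CCND3 was at 297 and 343 CPM, or 158 CPM per kilobase, CCND2 at 4.33 and 4.04 CPM, or 0.644 CPM per kilobase, and CCND1 at 0.230 and 0 CPM. TOP2A was at 995 and 968 CPM, MCM7 at 736 and 826 CPM and PCNA at 431 and 504 CPM.

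Of 34 listed tumor suppressor genes, 3 had no count, beside 24.4% of all protein-coding genes. These were CDKN2A, CDKN2B and MTAP, which are neighbours on chromosome 9. In GENCODE 44 coordinates on hg38, 55 consecutive annotated genes around CDKN2A were at 0 in both libraries, from chr9:21058771-22824213, a span of 1765 kb. The 21 protein-coding genes in it were 16 interferon genes, which resting cells rarely transcribe, and KLHL9, MTAP, CDKN2A, CDKN2B and DMRTA1. KLHL9, a ubiquitin ligase adaptor, and MTAP, an enzyme of methionine salvage, are active in most human tissues. The genes on the low-coordinate side were counted, with MLLT3 at 29.0 and 30.5 CPM, FOCAD at 41.8 and 42.6 CPM and HACD4 at 17.6 and 18.4 CPM, and on the far side the run ended with the pseudogene CLIC4P1 at 18 and 19 counts. Jurkat lines are known to lack CDKN2A; DNA was not measured here. RB1 was at 471 and 404 CPM.

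**Figure D2:**
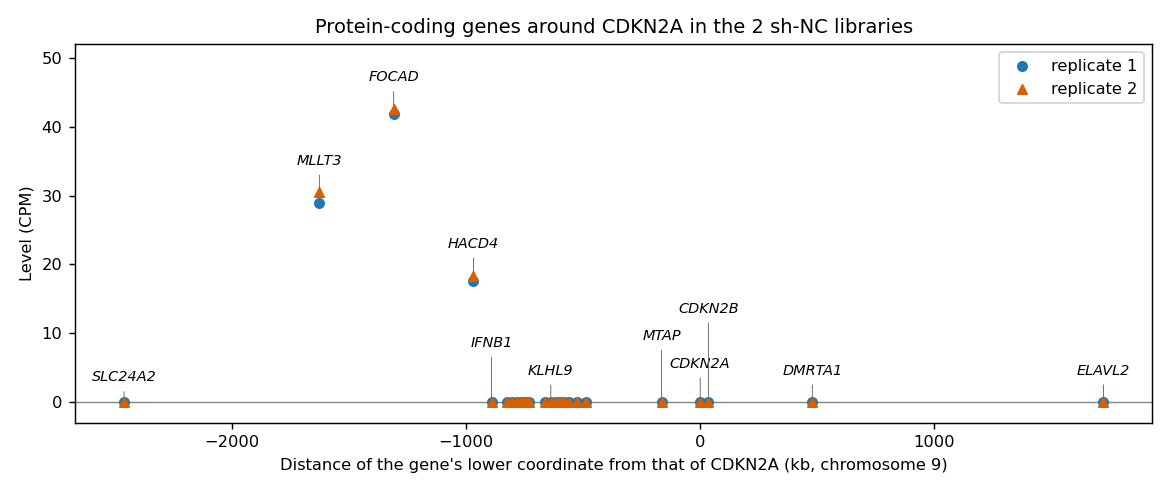
Level in CPM (vertical) of each protein-coding gene within 2500 kb of CDKN2A on chromosome 9, by the distance of its lower coordinate from that of CDKN2A in kb (horizontal), in replicate 1 (blue circles) and replicate 2 (orange triangles) of the sh-NC cells. All genes from IFNB1 to ELAVL2 lie at 0, as does SLC24A2 at the far left, and MLLT3, FOCAD and HACD4 lie between 17.6 and 42.6 CPM.

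This block was compared with other runs of protein-coding genes without a count. Counting runs of 5 or more neighbours, 152 were found, and the run through CDKN2A, from IFNB1 to TUSC1 with 24 genes, was the eighth by number of genes. Most longer runs consisted of gene families for smell or skin. The longest, 70 genes on chromosome 11 from OR4B1 to LRRC55, held 63 olfactory receptors, the second was 54 keratin and keratin-associated genes on chromosome 17, and the fourth was 36 genes on chromosome 21 with 33 keratin-associated genes. By family, none of 408 olfactory receptors was detected and 388 had no count, none of 94 keratin-associated proteins was detected with 88 at 0, and 45 of 46 defensins were at 0. Among all protein-coding genes, 58.9% were detected and 24.4% had no count. All 13 mitochondrially encoded messenger RNAs, all 78 mitochondrial ribosomal proteins and 83 of 86 ribosomal protein genes were detected. The other 3 ribosomal protein genes had no count. Core and linker histones were at the other end, with 8 of 75 detected, and the leading member was the replication-independent H3-3A at 386 CPM per kilobase, with 384 and 442 CPM; most other histone messages lack a poly(A) tail, and how RNA was selected for these libraries is not given in the sources used here.

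At the top of the distribution stood metabolism, cytoskeleton and translation. Leaving out mitochondrially encoded and ribosomal protein genes, the 10 highest protein-coding genes per length were GAPDH at 3466 CPM per kilobase, ACTB at 2812, EEF1A1 at 2517, TMSB4X at 2318, PTMA at 2239, TUBA1B at 1835, ACTG1 at 1408, ENO1 at 1262, EEF1G at 1219 and PFN1 at 1151. Several have processed pseudogenes or close paralogs that can take or add reads. GAPDH ran from 2918 to 4015 CPM per kilobase between the libraries and overlapped with no value of ACTB, at 2726 and 2898, but ACTB and EEF1A1, at 2202 and 2832, did overlap. The 50 highest genes held 12.02% and 12.27% of all counts and the mitochondrially encoded genes 4.62% and 3.38%. Long noncoding RNAs held 0.737% and 0.786%, with 776 of 13830 detected and the most counts in SNHG29, at 354 and 451 CPM.

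Promoter sequence varied with the level. The 300 bases around each canonical start, 250 before and 50 after, were read from hg38 for all 19550 protein-coding genes. The 13 mitochondrially encoded genes, with a median of 3324 CPM per kilobase, were included. Their windows hold mitochondrial sequence and not nuclear promoters. The CpG ratio is the number of CG pairs over the number that the C and G content would give, and the motif searched was TATAAA on both strands, where it is TTTATA on the opposite strand. The 2 promoters below show contrasting classes, a silent cytokine gene with TATAAA and a CpG-rich factor gene at a high level. Each is the 250 bases upstream of the start, 5′ to 3′ on the gene's strand, with CG pairs and TATAAA in capitals.
IFNG, chr12:68159741-68159990, minus strand: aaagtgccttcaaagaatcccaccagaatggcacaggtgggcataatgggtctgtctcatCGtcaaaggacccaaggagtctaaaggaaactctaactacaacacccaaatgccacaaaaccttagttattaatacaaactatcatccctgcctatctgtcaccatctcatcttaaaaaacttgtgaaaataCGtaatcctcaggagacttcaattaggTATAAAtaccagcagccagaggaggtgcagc
MYB, chr6:135181058-135181307, plus strand: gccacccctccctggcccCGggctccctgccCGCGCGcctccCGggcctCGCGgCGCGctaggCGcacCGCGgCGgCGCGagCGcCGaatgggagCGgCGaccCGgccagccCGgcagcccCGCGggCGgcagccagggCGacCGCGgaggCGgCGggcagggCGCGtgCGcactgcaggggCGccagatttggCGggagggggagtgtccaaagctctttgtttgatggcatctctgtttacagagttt

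IFNG, which had no count, holds 2 CG pairs in these 250 bases and TATAAA starting 31 bases before its start. MYB, at 168 CPM per kilobase, holds 34 CG pairs and no TATAAA. Across genes, a CpG ratio of 0.6 or more was found in 31.8% of 4773 promoters of genes at 0, 52.7% of 3954 at up to 1 CPM per kilobase, 84.2% of 4574 at over 1 to 10, 93.3% of 5638 at over 10 to 100 and 93.8% of 611 above 100, beside 68.0% of all. TATAAA ran the other way and then back, in 20.1%, 11.1%, 4.57%, 3.62% and 10.8% of the same bands and 9.60% of all. The highest band is made of short transcripts, with a median of 1.62 kb against 3.01 kb in the band below, and with bands of CPM in place of CPM per kilobase its share with TATAAA was 5.002%. None of the promoters of the 5 protein-coding members of the receptor complex list, the 4 CD3 chains and the low PTCRA, had a ratio of 0.6 or more, while all 26 cell cycle promoters did. Of the 34 cytokine promoters, 16 held TATAAA and 3 reached the ratio of 0.6. A match is a run of letters and not a tested site.

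**Figure D3:**
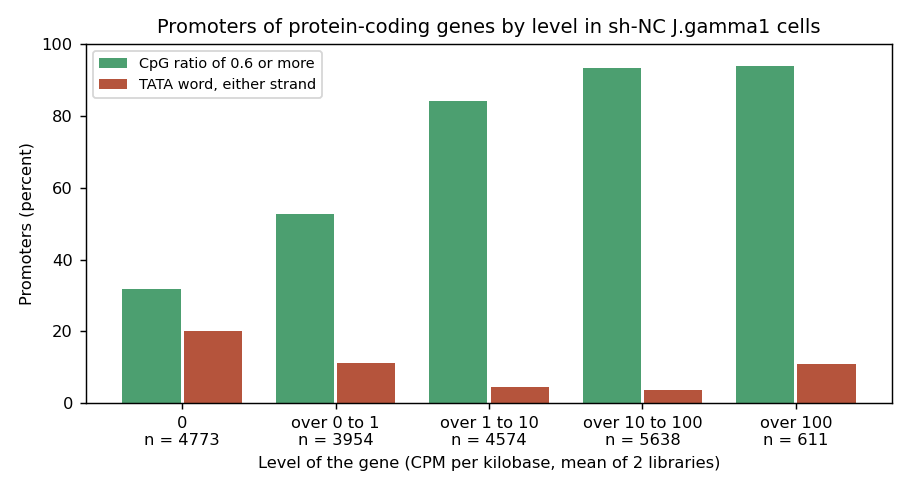
Percent of protein-coding promoters (vertical) with a CpG ratio of 0.6 or more (green) and with the TATA word on either strand (red), by level of the gene in CPM per kilobase, mean of the 2 sh-NC libraries (horizontal, with the number of genes). The green bars climb from 31.8% to 93.8%, and the red bars fall from 20.1% to 3.62% and stand at 10.8% in the highest band.

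The 2 libraries were alike for most genes but not all. Of 9786 genes at 10 CPM or more on average, 9280 (94.8%) lay within 1.5 times of each other, 241 (2.46%) were higher by more in replicate 2 and 264 (2.7%) in replicate 1. The coefficient of variation between the libraries was 0.169, the square root of the edgeR common dispersion. Their counts differed by more than sampling noise, with a mean chi-square of 40.9 per gene at 1 degree of freedom. That shows only that they are not copies of the same library and says nothing of separate cultures. The remaining gene had no count in replicate 1. All 13 mitochondrially encoded messages were lower in replicate 2, while 5286 of the 9786 genes were higher. Of 83 ribosomal protein genes 73 were higher in replicate 2, beside 77.7% and 82.2% of all genes with transcripts of up to 1252 and of 1253 to 1815 bases.

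Several of the genes with wide gaps toward replicate 2 are known to answer to low oxygen or belong to glycolysis. BHLHE40, a transcriptional repressor induced by hypoxia, went from 4.94 CPM in replicate 1 to 49.9 CPM in replicate 2, 10.1 times higher. ALDOC, a glycolytic aldolase, was at 11.7 and 83.5 CPM, 7.13 times higher, and PFKFB4, which sets the pace of glycolysis, at 8.39 and 49.7 CPM, 5.93 times higher. BNIP3, a mitophagy receptor, was at 56.0 and 265 CPM and VEGFA, the vascular growth factor, at 5.32 and 18.4 CPM. The most abundant enzymes differed as well, with ENO1 at 1570 and 2926 CPM, LDHA at 952 and 1913 CPM and PGK1 at 808 and 1473 CPM. A list of 36 such genes was written after these values were seen, so its counts describe the gaps and do not support them. Of its members 30 reached 10 CPM, all 30 were higher in replicate 2, and 26 by more than 1.5 times, or 23 with the median of genes of like length subtracted. Of all 9786 genes at that level, 5286 were higher in replicate 2, and 241 (2.46%) by more than 1.5 times. With 1 library on each side this compares libraries and not conditions, and the oxygen or density of the cultures is not given in the sources used here.

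Among the other genes with the widest gaps, several overlap other detected genes, so that reads may have been assigned differently. RPL36A-HNRNPH2, a readthrough of RPL36A and HNRNPH2, was 28.4 times higher in replicate 1. IPO4 was at 97.2 and 13.2 CPM, while ENSG00000259522, which overlaps it, was at 21.0 and 93.0 CPM. MVP-DT, which overlaps MVP and MAZ, was 11.9 times higher in replicate 2, and PPAN-P2RY11, a readthrough of PPAN and P2RY11, was at 0 and 24.7 CPM. CDHR1, which overlaps no detected gene, was at 3.14 and 18.3 CPM. The pseudogenes DHFRP1 and TCEA1P2 and the gene ENSG00000258790 were the other members of the 5 widest gaps toward replicate 1. Strand use in the counting is not given in the sources used here.

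The libraries also differed with transcript length. Of 979 genes with transcripts of up to 1252 bases, 77.7% were higher in replicate 2, with a median log2 ratio of replicate 2 over replicate 1 of 0.17. The share fell to 51.5% for transcripts of 3438 to 4118 bases, with a median of 0.01, and to 14.4% for those of 7782 bases or longer, with a median of -0.29. Long genes with wide gaps were KMT2D, a histone methyltransferase with a transcript of 20.6 kb, at 312 and 159 CPM, and KMT2C at 167 and 87.3 CPM. RAG1 had a log2 ratio of -0.97 beside a median of -0.16 for transcripts of its length, and DNTT 0.82 beside 0.14, so both stood apart from genes of like length in opposite directions. Levels per kilobase of long genes are lower in replicate 2 to this extent, and what made the libraries differ was not tested.

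**Figure D4:**
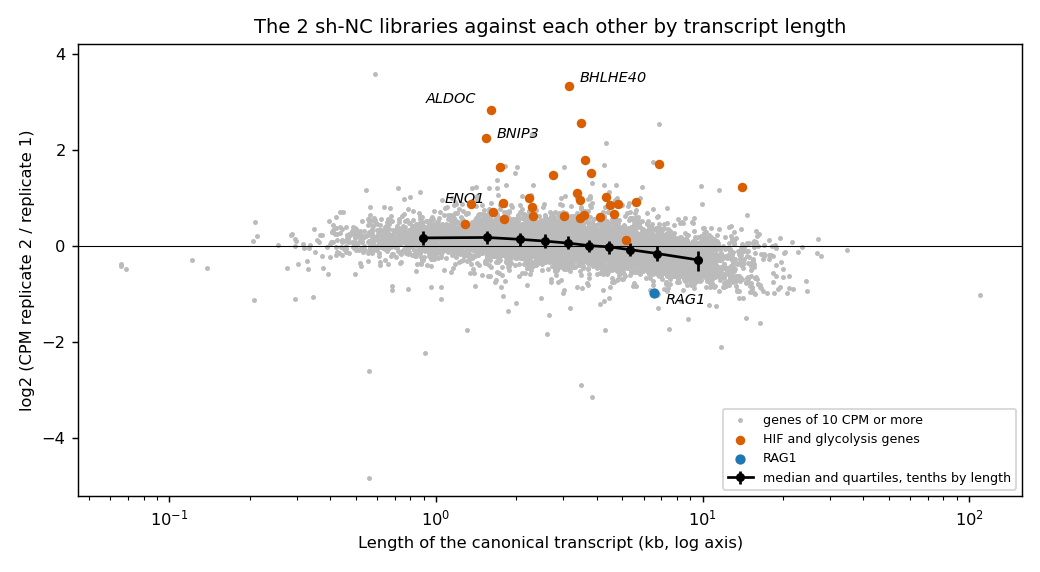
Log2 ratio of CPM in replicate 2 over replicate 1 (vertical) against the length of the canonical transcript in kb on a log axis (horizontal) for genes of 10 CPM or more on average with counts in both libraries (grey); black points with bars are medians and quartiles of 10 bins by length, orange points are listed HIF and glycolysis genes and the blue point is RAG1. The medians fall from 0.17 to -0.29, and all 30 orange points lie above 0. The list of orange points was written after these gaps were seen.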

How the data were processed

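RNA was extracted with TRIzol and prepared with the Illumina TruSeq kit, per the labels, and sequenced as paired ends, per the methods of the study. The authors aligned reads with HISAT2 2.2.0 to hg38 and assembled them with StringTie, per the labels, and deposited raw read counts per gene. How coverage was turned into counts is not given in the sources used here. The members and lists were chosen with earlier results of these data known, and the list of HIF and glycolysis genes after seeing the values. The share detected and the median of each list therefore describe that list only.

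Gene names, lengths and coordinates came from GENCODE 44 on hg38. Its identifiers matched 56105 of 64252 rows, and the other 8147 rows, with 2.01% and 2.11% of counts, were left out of the totals. Where a symbol had several rows, the row of higher level was used. CPM was not scaled further. The spread was estimated with edgeR 4.0.16 in R 4.3.3 with TMM factors over 14762 genes of 10 counts or more in both libraries. Other steps used Python 3.11.15. With 1 group of 2 libraries no test was run, so no p-value is given. The scripts were checked on simulated counts. Genes were named if they were in the lists, in each list the highest, those at 0 and those differing by over 1.5 times, plus the highest of each family and of each receptor segment locus, the 10 highest genes and the 5 widest gaps each way. Differences in genes below 1 CPM, members within 1.5 times, and the order of genes per length were chosen for the text after their values were seen. No column of the table belonged to an unlisted sample. Some genes are not reported here.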

Additional observations from a re-analysis of the deposited data

How the results depend on the processing

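The counts of detected protein-coding genes, stage markers, factors, receptors and other-lineage markers stayed within 1.5 times of the reported ones under TMM scaling, totals over all rows, totals without mitochondrial genes, a limit of 10 counts, a limit of 1 CPM per kilobase, and 1 CPM in either library. For 43 counts of single lists and families, added after seeing the data, the first 3 moved none, while 5 moved by more with 10 counts, 4 with 1 CPM per kilobase and 2 with 1 CPM in either library. Among these, the 8 core and linker histones became 17 and 13 under the first 2 limits, the 3 T-box genes 5 and 1, and the 0 class II genes 2 with 10 counts and 1 with 1 CPM in either library. Left to 1 library, protein-coding genes detected ran from 11670 to 11744, stage markers from 33 to 34, factors from 75 to 77, receptors from 55 to 57, other-lineage markers from 18 to 19, and genes at 0 from 5280 to 5458. The mean share of the 50 highest genes, 12.1%, was 11.9% with all rows in the total and 9.94% without mitochondrial genes. The coefficient of variation, 0.169, was 0.172 with upper-quartile scaling and 0.189 with genes of 1 count in either library. The share of promoters with TATAAA above 100 CPM per kilobase, 10.8%, was 14.8% with the union of exons as length and 5.002% with CPM bands. With the union of exons CD3D fell from 323 to 66.5 CPM per kilobase, CD3E from 327 to 167 and TAL1 from 49.0 to 39.9, and the median log2 ratio of the longest transcripts was -0.18 in place of -0.29. The alternative length for this trend and the length-adjusted HIF list, with 23 genes in place of 26, were chosen after seeing the data. No paired analysis was possible because only 1 group is described. With 2 libraries a gap between them cannot be assigned to a culture or a preparation.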
